A study of Mus musculus with 12 samples.

Results

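The urea cycle turns ammonia, released when the liver breaks down amino acids, into urea for excretion. The genes described here are its 5 enzymes (Cps1, Otc, Ass1, Asl and Arg1), the enzyme Nags that makes the activator of the first step, and the mitochondrial carriers Slc25a15 and Slc25a13. They were taken as every array probe whose platform gene symbol is one of these 8 names. All 8 genes were found, on 14 probes, among 19057 named genes on 45281 probes, and all 8 passed the filter on dim probes, as did 8819 genes in all. Liver RNA was measured on Illumina Mouse-6 V2 BeadChips in 6 samples labelled icv leptin and 6 labelled icv PBS, where icv means into a brain ventricle. Both groups are labelled insulin-deficient and of mixed strain background, and how insulin was removed, the sex and the age are not given in the sources used here. Leptin ran at 25 ng in 0.11 µL per hour and these livers were taken on day 10, while no dose volume or day is recorded here for PBS, the placebo. The labels tie no array to a named animal, and every p-value here therefore weighs a difference against the scatter of these 12 samples, part of which may be technical.

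As background, the cycle starts inside the mitochondria of hepatocytes, mainly those near the portal vein, and ends in their cytosol. Carbamoyl phosphate made there joins ornithine to give citrulline, which leaves the mitochondrion, takes up aspartate, and is then split into fumarate and arginine. Arginine gives urea and returns ornithine. Glucagon and glucocorticoids are known to raise the transcripts of these enzymes, protein intake and fasting raise them too, and leptin is a fat tissue hormone that acts largely in the brain.

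Leptin livers held less mRNA for 5 of the 8 genes than PBS livers, and for none of them more. Asl was 3.01-fold lower, Nags 1.83-fold, Slc25a15 1.80-fold, Ass1 1.64-fold and Slc25a13 1.51-fold, each past an adjusted p of 0.05 in limma over all genes. Cps1, Arg1 and Otc did not pass. The median log2 difference of the 8, leptin minus PBS, was -0.66, against 0.0039 over all 8819 genes. In that comparison 8.40% of all genes passed as lower and 16.7% passed in either direction. For Asl, Ass1 and Slc25a15 every leptin array lay below every PBS array, as was so for 4.13% of all genes.

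Arrays of the 2 groups resembled each other closely, with Pearson correlations across probes of 0.946 to 0.984 within groups and 0.926 to 0.972 between them, and 13159 to 14431 probes were detected per array. Leptin replicate 4 and PBS replicate 3 stood apart from their groups in a score of clock genes, the mean z-value of Dbp, Tef, Per2, Per3, Nr1d1 and Nr1d2 minus that of Arntl and Clock. The score was -0.65 in leptin 4, against 1.46 to 2.06 in the other leptin arrays, and 0.62 in PBS 3, against -2.06 to -1.48 in the other PBS arrays. Without both of these arrays, 4 of the 8 genes passed as lower, against 8.67% of all genes, and Slc25a13 did not pass.

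**Figure D1:**
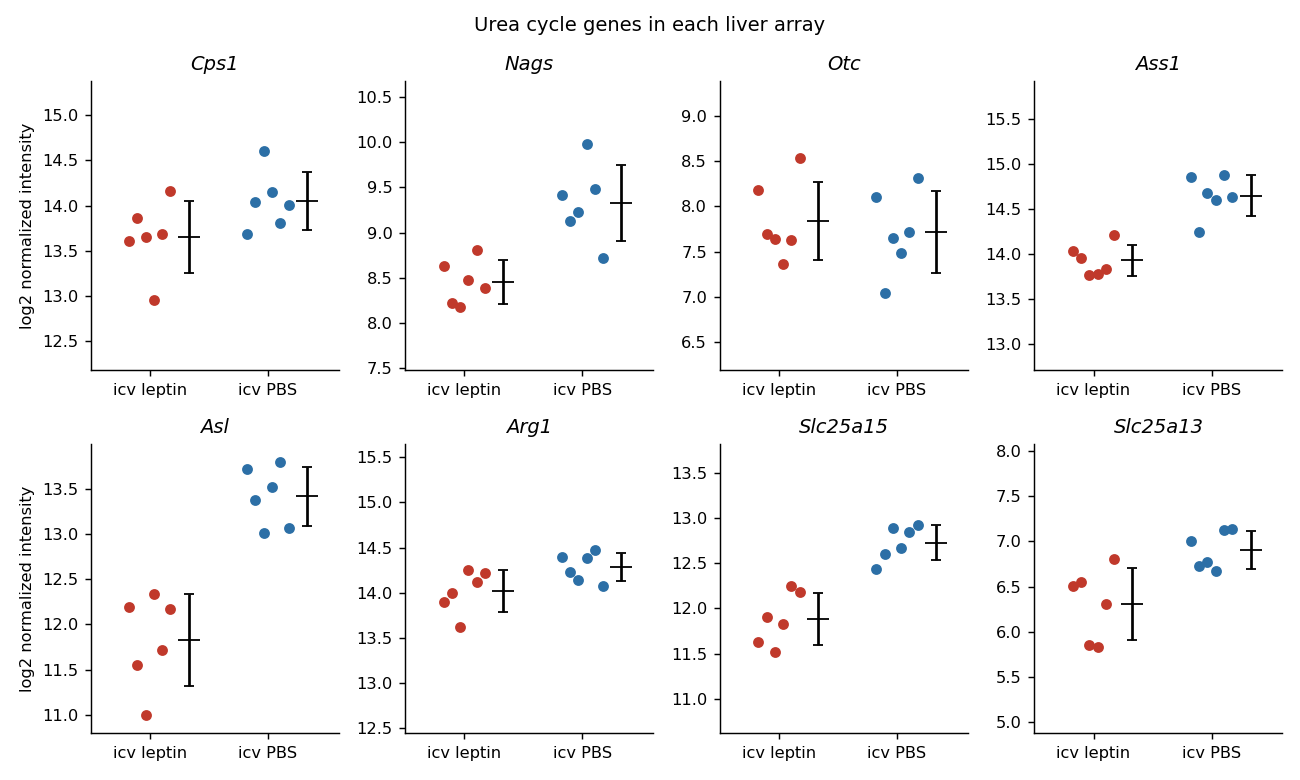
Log2 normalized intensity (vertical axis, each panel 3.2 units high) of the 8 genes in each of 6 icv leptin arrays (red, left) and 6 icv PBS arrays (blue, right), with the mean and SD as black bars. The groups are apart for Asl, Ass1 and Slc25a15 and overlap for the other 5 genes.

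Of the mitochondrial enzymes, Nags fell and Cps1 and Otc did not pass. Nags makes N-acetylglutamate, without which carbamoyl phosphate synthetase is inactive. Its deposited signal, on a linear scale with background included, was 387.1 at the lowest, 444.2 at the median and 547.7 at the highest with leptin, against 519.3, 739.2 and 1110.2 with PBS. The groups overlapped only through PBS 6, which lay below leptin 5. On the normalized log2 scale Nags averaged 8.45 ± 0.24 with leptin and 9.32 ± 0.42 with PBS (SD, n = 6 each), a difference of -0.87 ± 0.19 (SE, limma adjusted p = 0.00801). Once the fit held the clock score too, the Nags difference was -0.77 and did not pass (adjusted p = 0.178). Apart from leptin 4 and PBS 3 the score divided the groups, so here and below such fits lean on those arrays. Whether calls lost or gained in them reflect the clock was not tested.

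Cps1, which joins ammonia and bicarbonate to form carbamoyl phosphate and sets the entry of nitrogen into the cycle, had a signal of 8033.6, 13116.6 and 18480.9 (lowest, median and highest) with leptin, against 13240, 16691.2 and 24947 with PBS. Its log2 intensity averaged 13.66 ± 0.40 with leptin and 14.05 ± 0.32 with PBS (SD, n = 6 each), a difference of -0.39 with a 95% interval of -0.81 to 0.03 (limma adjusted p = 0.185). The lowest leptin value was that of leptin 4 and the highest PBS value that of PBS 3, the arrays that stood apart in the clock score. Without these arrays the Cps1 difference was -0.14 (adjusted p = 0.528), and once the fit held the score it was -1.19 and passed (adjusted p = 0.0155). Without leptin 4 alone it was -0.25. A further Cps1 probe gave -0.44 ± 0.26 (SE).

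Otc carries the carbamoyl group to ornithine and so makes citrulline. Its signal was 262.8, 301.7 and 468.3 (lowest, median and highest) with leptin, against 230.4, 304.1 and 417.8 with PBS, and the groups overlapped over most of their range. The log2 difference was 0.12 with a 95% interval of -0.38 to 0.62 (limma adjusted p = 0.765). That probe was detected on all 12 arrays. The other Otc probe was detected on no leptin array and on 2 PBS arrays and was not tested. The Otc difference turned to -0.02 without leptin 6 or without PBS 2, and to -0.31 with the clock score (adjusted p 0.684 to 0.970).

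The cytosolic enzymes Ass1 and Asl fell, and Arg1 did not pass. Ass1 condenses citrulline with aspartate, which brings in the urea molecule's other nitrogen atom. Its signal was 14035.2, 15314.3 and 19055.9 (lowest, median and highest) with leptin, against 19494.3, 25874.8 and 30067.3 with PBS, so the groups did not overlap. The log2 intensity averaged 13.93 ± 0.17 with leptin and 14.65 ± 0.23 with PBS (SD, n = 6 each), a difference of -0.72 ± 0.13 (SE, limma adjusted p = 0.00286). Ass1 and Slc25a15 kept their call under all 24 alternative settings, the clock score included.

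Asl, which splits argininosuccinate into arginine and fumarate, showed the greatest fall of the 8 on both of its probes. The first probe's signal was 2148.6, 4086.8 and 5262.6 (lowest, median and highest) with leptin, against 8386.8, 11293.2 and 14335.4 with PBS. Every leptin value lay well below the lowest PBS value. The log2 intensity averaged 11.83 ± 0.51 with leptin and 13.42 ± 0.33 with PBS (SD, n = 6 each), a difference of -1.59 ± 0.22 (SE, limma adjusted p = 0.00079). The other probe gave -1.64 ± 0.22. Ordered from the most negative difference, Asl stood at place 39 of 8819 genes. Without PBS 3 and leptin 4 the Asl difference was -1.77, and with the clock score it was -1.14 and did not pass (adjusted p = 0.0808).

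Arg1, the arginase of hepatocytes, releases urea and returns ornithine to the cycle. Its signal was 12750.2, 17175.8 and 19601.4 (lowest, median and highest) with leptin, against 17318.7, 20394.3 and 22826.3 with PBS. The upper leptin arrays reached into the PBS range. The log2 difference was -0.26 with a 95% interval of -0.54 to 0.0061 (limma adjusted p = 0.165), and -0.35 ± 0.17 (SE) on the other probe. It was -0.06 once the fit held the clock score. Arg1 is also known from macrophages, of whose 8 tested marker genes 3 were higher in leptin livers and 5 did not pass. In either direction, 16.7% of all genes passed.

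Both carriers fell. Slc25a15, or ORNT1, exchanges cytosolic ornithine for mitochondrial citrulline and so links the mitochondrial and cytosolic steps. Its signal was 3034.9, 3825.0 and 4958.8 (lowest, median and highest) with leptin, against 5637.3, 7034 and 7865 with PBS, with no overlap. The log2 intensity averaged 11.88 ± 0.29 with leptin and 12.73 ± 0.19 with PBS (SD, n = 6 each), a difference of -0.85 ± 0.14 (SE, limma adjusted p = 0.00236), and the other probe gave -1.06 ± 0.17.

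Slc25a13, or citrin, exports aspartate from mitochondria for the Ass1 step. Its signal was 155.2, 183.6 and 210.1 (lowest, median and highest) with leptin, against 200.5, 217.3 and 239 with PBS, close to the median of all probes, 118.9. The groups overlapped only through leptin 6. The log2 difference was -0.60 ± 0.17 (SE, limma adjusted p = 0.0321). The difference was -0.29 on the deposited signals, which include background (adjusted p = 0.037). Leaving out leptin 3, 4 or 5, or PBS 1, 5 or 6, ended this call (adjusted p 0.0557 to 0.0692). So did leaving out leptin 4 along with PBS 3 (0.0576), using no filter on dim probes (0.06) and adding the clock score (0.0699, at -0.93). The score without Arntl, tried after seeing the data, left Slc25a13 past the threshold (-1.06, adjusted p = 0.0461). The other probe was detected on none of the leptin arrays and on 4 of the PBS arrays, so it passed the filter through the PBS arrays alone. With its leptin side set to the lowest signal of detected probes, or to its own value where higher, it was 1.15-fold lower. That is no lower bound, since the filter set the direction and the PBS mean includes arrays that did not detect the probe. The adjusted p of 0.0289 that limma gave it rests on leptin values that were not detected, and on the deposited signals it missed the threshold (adjusted p = 0.0639).

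**Figure D2:**
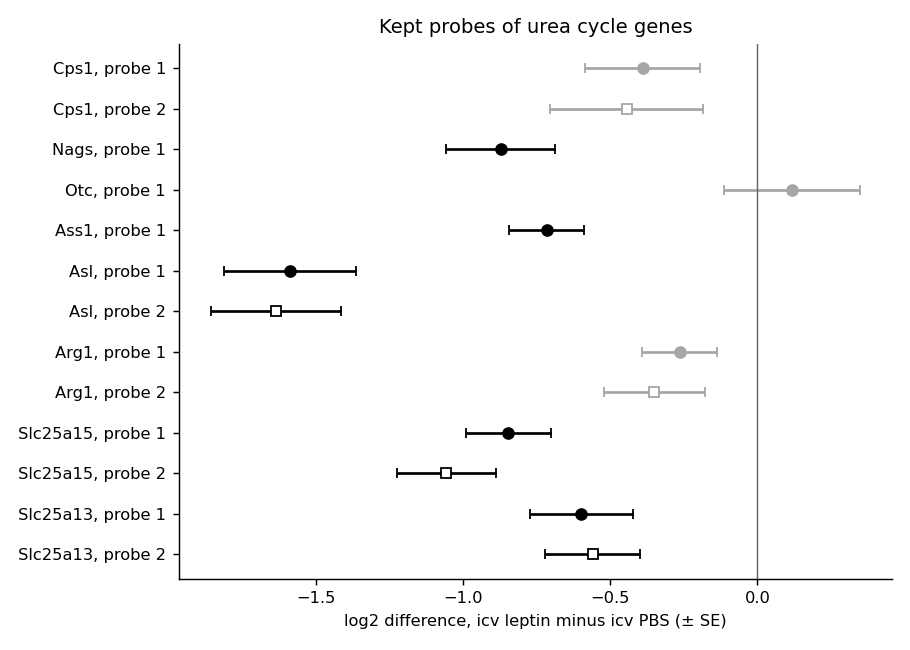
Log2 difference, icv leptin minus icv PBS, with its SE (horizontal axis) for the 13 kept probes of the 8 genes. Filled circles are the probe that stands for the gene, open squares the other probe, black marks passed an adjusted p of 0.05 over all kept probes and grey ones did not. Both probes of a gene lie on the same side of 0 wherever 2 were kept, and Asl stands furthest to the left.

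For 6 of the genes 2 probes were on the array, and for Cps1, Asl, Arg1 and Slc25a15 both probes passed or missed the threshold together. Of the 13 kept probes 8 passed as lower in a fit of all 15062 kept probes, where 9.76% of all probes did, and these include the Slc25a13 probe that no leptin array detected. In the authors' deposited table, 6 of the 14 probes are marked as down and none as up, where 1.09% of all 45281 probes are marked as down. The bases are unlike, since 13 of these 14 probes were kept as detected, but only 15062 of all probes were. The marked probes are those of Nags, Ass1, Asl and Slc25a15. The Slc25a13 probes carry no mark there, with unadjusted p of 0.00475 and 0.0062 in the authors' deposited table.

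The probes standing for the members did not all show the same change. Their mean log2 intensity ran from 6.31 (Slc25a13, leptin) to 14.65 (Ass1, PBS). Whether probes of such different brightness show a change on the same scale was not tested. The difference of the log2 changes of each pair of genes was set against the 924 ways to divide the 12 arrays into equal groups, an exact two-sided permutation test whose smallest possible p is 0.00216, adjusted over 28 pairs. Of these pairs 12 differed. The Asl change was more negative than that of Otc by 1.71, of Arg1 by 1.32, of Cps1 by 1.20, of Slc25a13 by 0.99, of Ass1 by 0.87 and of Nags by 0.72 (log2, exact adjusted p 0.0242 to 0.0455). Against Slc25a15 it was more negative by 0.74, with an exact p of 0.0303 and an adjusted p of 0.0606. The changes of Nags, Ass1 and Slc25a15 each differed from that of Arg1 (exact adjusted p 0.0242 to 0.0269), the enzyme that follows Asl in the cycle. The Otc change differed from those of Ass1, Slc25a15 and Slc25a13 (exact adjusted p 0.0242 to 0.0303). All comparisons with Otc rest on its only tested probe. The other Otc probe, mostly undetected, leaned the opposite way, averaging 4.60 with leptin and 5.11 with PBS (log2). Between the changes of Cps1 and Arg1 the difference was -0.13 ± 0.26 (SE, exact p = 0.662).

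Between arrays of one group the genes were not shown to vary together. Over 6 arrays, 28 pairs of genes had a median Pearson r of 0.366 in the leptin group and 0.0754 in the PBS group. Asl and Arg1 had the highest value in PBS livers (r = 0.962, exact permutation p = 0.00417, rho = 0.943, exact p = 0.0167), and r = 0.919 without the 2 arrays farthest from the median. In leptin livers the same pair had r = 0.777 (exact p = 0.0556, rho = 0.657, exact p = 0.175), and 0.139 without 2 arrays. No pair passed once adjusted over the 56 values of both groups (smallest adjusted p = 0.156, exact permutation tests), and 3 pairs with leptin and 1 with PBS had an unadjusted p under 0.05. The genes whose deviations from the group means most resembled the mean of the 8 over the 12 arrays were Ip6k2 (r = 0.917, rho = 0.832), Hadh (0.904, 0.888), Uck1 (0.901, 0.916), Nop56 (0.887, 0.720) and Zc3h8 (0.886, 0.818). These were picked as the highest of all genes, so no p is given.

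Upstream sequence was at hand for 5 of the 8 genes (Nags, Otc, Ass1, Slc25a15 with 2 starts, and Slc25a13) from RefSeq, build GRCm38.p6, as 250 bases before and 50 after each start. Since glucagon is known to act on these genes through cAMP, the core of the cAMP response element, TGACG, was searched on both strands. It stood in the windows of Nags and Slc25a13 and in 20.8% of 32851 windows of that length. The windows of Ass1 and Slc25a15, genes that fell too, and of Otc, which did not pass, held no match. The windows are shown because they hold this match, in capitals (on the opposite strand in Nags, so it reads CGTCA), at position 32 after the Nags start and 13 bases before the Slc25a13 start.
Nags, chr11:102145263-102145562, + strand: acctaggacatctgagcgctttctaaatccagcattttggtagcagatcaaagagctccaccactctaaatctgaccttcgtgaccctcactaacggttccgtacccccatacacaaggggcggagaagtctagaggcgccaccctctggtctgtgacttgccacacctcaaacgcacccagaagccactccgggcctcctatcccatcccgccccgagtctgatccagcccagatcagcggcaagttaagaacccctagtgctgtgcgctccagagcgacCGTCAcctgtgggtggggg
Slc25a13, chr6:6217124-6217423, - strand: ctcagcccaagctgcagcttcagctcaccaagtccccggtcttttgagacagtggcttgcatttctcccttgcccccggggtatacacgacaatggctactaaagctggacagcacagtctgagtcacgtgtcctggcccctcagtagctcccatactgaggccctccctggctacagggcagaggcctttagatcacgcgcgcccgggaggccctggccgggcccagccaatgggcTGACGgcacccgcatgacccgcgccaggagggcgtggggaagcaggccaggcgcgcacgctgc
The whole element TGACGTCA (in 1.79% of all windows, and overlapping the core), the C/EBP motif TTGCNNAA (10.8%), CAAAGTC of HNF4 (4.44%), TGTTTAC of forkhead factors (3.65%) and TGTTCT, bound by the glucocorticoid receptor (19.0%), had no match in the 6 windows. That says only that these letters are not in them.

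Of 13 fixed genes of ammonia, bicarbonate and aspartate supply 8 were tested, with 4 that fell, where 8.40% of all genes did. None rose, and the median log2 difference was -0.50. Fumarate hydratase Fh1, which takes up the fumarate made by Asl, averaged 12.18 ± 0.20 with leptin and 12.94 ± 0.34 with PBS (log2, SD, n = 6 each), a difference of -0.77 ± 0.16 (SE, limma adjusted p = 0.00656). Slc25a12, or aralar, the relative of citrin that also exports aspartate, fell by 0.75 on the log2 scale. The mitochondrial aspartate aminotransferase Got2 fell by 0.49 and the alanine aminotransferase Gpt by 0.55. In none of these 4, named because they passed, did the groups overlap. Every leptin array lay below every PBS array for 4.13% of all genes. Gpt2 (-0.51, adjusted p = 0.0896), Glud1, the glutamate dehydrogenase that frees ammonia (-0.33, 0.0702), and Sirt5, known to deacylate the Cps1 protein (-0.30, 0.217), did not pass in limma. Fh1 and Slc25a12 did not pass once the clock score was added (-0.53 and -0.38, adjusted p = 0.261 and 0.250), while Got2 and Gpt passed at -0.77 and -0.85.

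**Figure D3:**
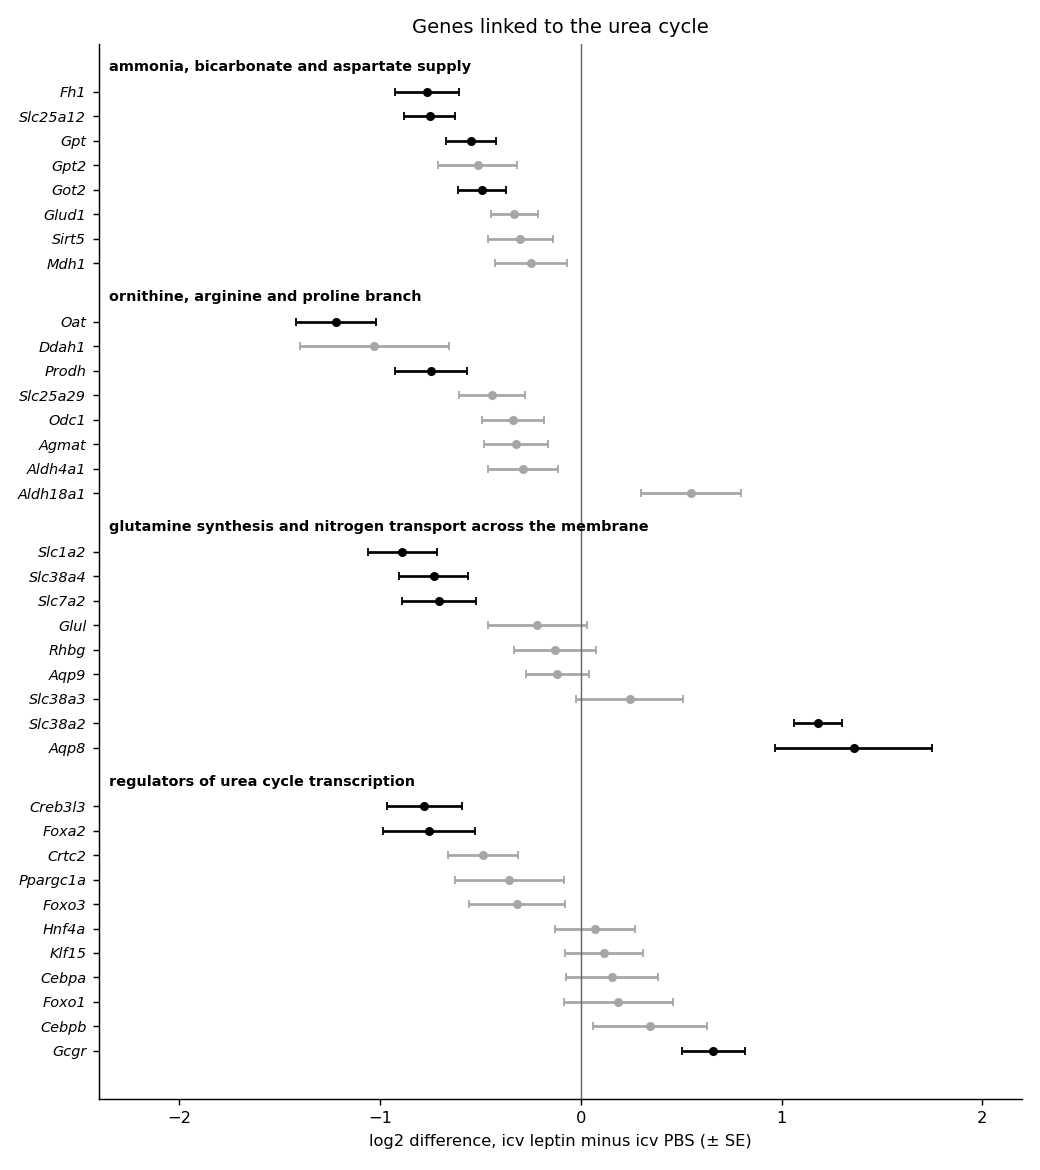
Log2 difference, icv leptin minus icv PBS, with its SE (horizontal axis) for tested genes of 4 fixed lists around the urea cycle. Black marks passed an adjusted p of 0.05 over all genes and grey ones did not. Slc38a2, Aqp8 and Gcgr lie to the right of 0 among those that passed, and Oat lies furthest to the left.

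In the ornithine, arginine and proline branch 2 of 8 tested genes fell, where 8.40% of all genes did. None rose, and the median log2 difference was -0.39. Oat, the mitochondrial ornithine aminotransferase that draws ornithine out of the cycle, averaged 13.37 ± 0.45 with leptin and 14.58 ± 0.27 with PBS (log2, SD, n = 6 each), a 2.33-fold fall (limma adjusted p = 0.00159). Proline dehydrogenase Prodh fell by 0.75 on the log2 scale. With the clock score added the differences of Oat and Prodh were -1.83 and -1.46, both past the threshold. Ddah1, which breaks down methylated arginines (-1.03, adjusted p = 0.0711), Aldh18a1 (0.55, 0.144) and Slc25a29 (-0.44, 0.0816) did not pass. Arg2, the mitochondrial arginase, and Slc25a2, the relative of ORNT1, were detected on no array.

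Transporters went both ways. Of 9 tested genes of glutamine synthesis and nitrogen transport 3 fell and 2 rose, with a median of -0.13. Among all genes 8.40% fell and 16.7% passed in either direction. The glutamate transporter Slc1a2 fell by 0.89, the amino acid transporter Slc38a4 by 0.73 and the cationic amino acid transporter Slc7a2, which brings in arginine, by 0.70 (limma adjusted p = 0.0045, 0.0123 and 0.0211). The amino acid transporter Slc38a2 rose by 1.18, or by 0.75 as the mean of its probes. The water channel Aqp8 rose by 1.36 (adjusted p = 0.031), a call that ended on leaving out leptin 1, 2, 3 or 6, or PBS 1, 2, 4, 5 or 6 (adjusted p 0.0508 to 0.0669), or with no filter on dim probes (0.0793). The Aqp8 difference was -0.54 once the clock score was added. Glul, the glutamine synthetase (-0.22), the glutamine transporter Slc38a3 (0.24) and the ammonia transporter Rhbg (-0.13) did not pass. The Glul probe was dim (5.35 with leptin and 5.56 with PBS, log2) and detected on only 4 leptin and 4 PBS arrays. Slc38a4 and Slc7a2 missed the threshold once the clock score was added (adjusted p = 0.0555 and 0.0862, at -1.01 and -0.96), and Slc7a2 also on leaving out leptin 4 along with PBS 3 (0.051).

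Among 11 tested factors known to regulate urea cycle genes or the hormone responses of liver, 2 fell and 1 rose, with a median of 0.07. For comparison, 8.40% of all genes passed as lower and 16.7% in either direction. Gcgr, the glucagon receptor, averaged 9.49 ± 0.30 with leptin and 8.83 ± 0.24 with PBS (log2, SD, n = 6 each), a 1.58-fold rise (limma adjusted p = 0.0127). Once the clock score was added the Gcgr difference was 0.07 (adjusted p = 0.874). Creb3l3, a membrane-bound transcription factor of fasted liver, fell by 0.78 (adjusted p = 0.0134), and the forkhead factor Foxa2 by 0.76 (0.0366). Creb3l3 was at -1.44 and still passed once the clock score was added. Foxa2 was at -0.33 on the deposited signals, and missed the threshold on leaving out leptin 1, 4, 5 or 6, or PBS 1, 2, 3, 4 or 6 (adjusted p 0.0503 to 0.0792). It also missed it on leaving out leptin 4 along with PBS 3 (0.0914), with no filter on dim probes (0.0806), with array weights (0.0577) and once the clock score was added (0.123). Crtc2 (-0.49, adjusted p = 0.0704), Ppargc1a (-0.35, 0.389) and Cebpb (0.34, 0.426) did not pass.

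The lists of both zones of the liver lobule held falls and, periportally, a rise. Of 7 tested periportal genes outside the urea cycle 2 fell and 1 rose (median -0.04), and of 10 tested pericentral genes 2 fell (median -0.17) and none rose. Over all genes 8.40% passed as lower and 16.7% in either direction. Whether these counts differ from those shares was not tested. Hal, the first enzyme of histidine breakdown, fell by 0.76 and Pck1, the cytosolic PEP carboxykinase, by 1.18, while the adhesion protein Cdh1 rose by 0.60 (limma adjusted p = 0.00569, 0.000377 and 0.0131). Cdh1 was at 0.37 on the deposited signals. Hal and Cdh1 missed the threshold once the clock score was added (adjusted p = 0.0568 and 0.310). Ctsc (0.64), Pigr (0.37) and Cyp2f2 (-0.10) did not pass. The pericentral genes that fell were Oat and Slc1a2, while Axin2 (-0.77, adjusted p = 0.0952), Gulo (0.40, 0.201) and Tbx3 (-0.31, 0.538) did not pass.

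In bulk liver, fewer cells of a type and less RNA per cell cannot be told apart. Calls among the markers below stand beside 8.40% of all genes that passed as lower and 16.7% in either direction. Of 7 hepatocyte markers 5 were tested, of which Alb fell by 0.83 and Serpina1a rose by 0.46, with a median of -0.01. The Alb probe was dim, averaging 6.27 with leptin and 7.10 with PBS (log2), against 15.26 and 15.27 for Apoa1. How well that probe measures Alb was not tested. The summed intensity of the 5 above background was 74900 to 87070 with leptin, against 69640 to 79560 with PBS. Apoa1 and Ttr (14.80 with leptin and 14.60 with PBS, log2) weigh most in this sum, so it cannot gauge hepatocyte content. The sum of the 8 urea cycle genes was 44850 to 66330 with leptin, against 72940 to 89490 with PBS. The brightest of them, Ass1, Arg1 and Cps1, weigh most in it, and Cps1 and Arg1 did not pass. It therefore does not show a fall of every gene. Of 8 tested Kupffer cell and macrophage markers, Clec4f, C1qa and C1qc rose (sum 8658 to 23660 with leptin, against 5773 to 12640 with PBS), and Stab2 and Cdh5 did among 6 endothelial markers (5825 to 8791, against 4128 to 8870). The 3 tested lymphocyte markers summed to 71.0 to 187.9, against 20.7 to 49.0, with Cd8a and Ms4a1 detected on no array. They were kept through the leptin arrays alone, since Cd3e was detected on 5 leptin arrays and no PBS array, Cd3g on 4 and none, and Cd79b on 6 and 1, so the filter set their direction. Of 6 stellate cell markers Acta2 rose (5577 to 10060, against 3946 to 7829). Of 2 cholangiocyte markers none passed (74.5 to 224.7, against 82.8 to 747.9), with Krt19 and Epcam detected on no array. Of 3 pancreatic acinar markers Cela2a rose and Amy2a5 fell (9272 to 16590, against 11470 to 15840), with Ctrb1, Cpa1, Prss2 and Try4 detected on no array. The part of these cell types in the falls of the urea cycle genes was not tested.

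**Figure D4:**
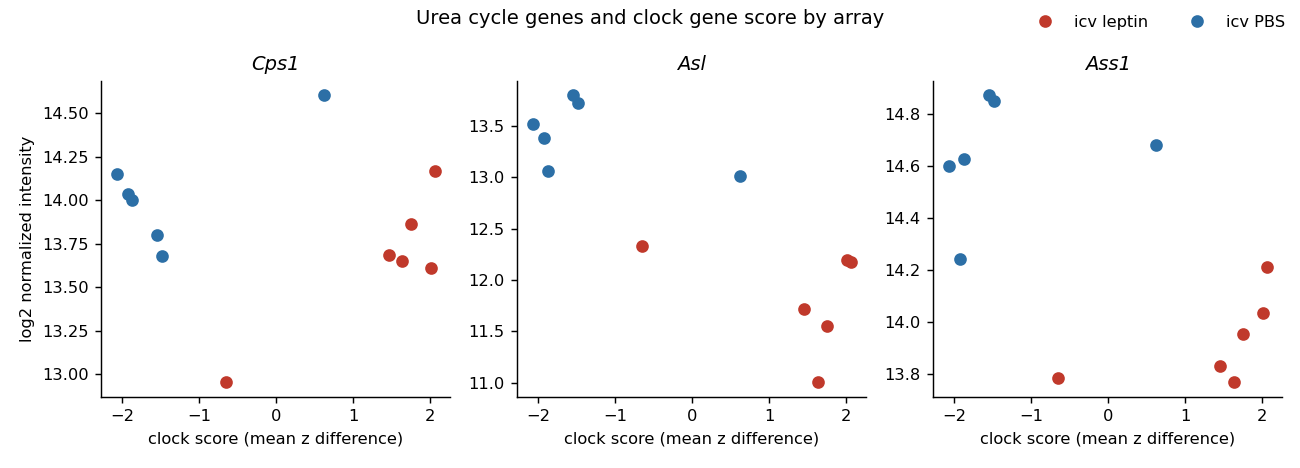
Log2 normalized intensity (vertical axis) of Cps1, Asl and Ass1 against the clock gene score (horizontal axis, difference of mean z-values) in 6 icv leptin arrays (red) and 6 icv PBS arrays (blue). Leptin 4 at -0.65 and PBS 3 at 0.62 lie between the other arrays of the groups on the horizontal axis.

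Among the clock genes Clock fell, and Dbp and Nr1d2 rose among 6 tested genes of the opposite phase, where 16.7% of all genes passed in either direction. Arntl passed detection on none of the leptin arrays and on 5 of the PBS arrays, so the filter set its direction, and with Clock it made up the morning side of the score. Without Arntl the score was -0.64 in leptin 4 and 0.235 in PBS 3. Per3, which stayed in that score, was detected on 5 leptin arrays and 1 PBS array, so the filter favoured its direction too. Within the leptin group, over 6 arrays, Otc followed the score in rank (rho = 1, exact permutation p = 0.00278, adjusted p = 0.0444 over 16 values, with r = 0.699, exact p = 0.129, and r = 0.910 without the 2 arrays farthest from the median). For Cps1 r was 0.893 there (exact p = 0.0333, rho = 0.60, exact p = 0.242) and -0.171 without 2 arrays, so it rests on those arrays, of which leptin 4 is one. None of the 8 genes passed on Pearson's r (smallest adjusted p = 0.356, exact permutation tests), and in the PBS group none passed on either measure. With the score in the fit 3 of the 8 genes passed as lower, namely Cps1, Ass1 and Slc25a15, against 3.22% of all genes. With the score without Arntl 4 did, Slc25a13 added to these, against 3.63% of all genes. Apart from leptin 4 and PBS 3 either score divided the groups widely, so the differences in both fits lean on those arrays. Asl, Nags and Slc25a13 lost their call with the full score at -1.14, -0.77 and -0.93, against -1.59, -0.87 and -0.60 without it. Whether calls lost or gained in these fits reflect the clock was not tested.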

How the data were processed

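Liver RNA was labelled as biotinylated cRNA and hybridized per the labels' protocols. The deposited intensity values are AVG_Signal per probe with a detection p-value, per the file headers. Their distributions were equal on all 12 arrays, with no background subtracted, so the authors' normalization came before deposit, with software that no source here names. The authors' deposited log2 values equalled log2 of these signals. The authors' deposited Cyber-T table gives an unadjusted p-value and a log2 difference, per the file headers.

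Of 45281 probes 34885 had 1 symbol in the platform annotation, 18 several and 10378 none; 34807 matched RefSeq GRCm38.p6 by gene identifier and 0 changed. Signals went through neqc (offset 16, so folds of dim genes are understated), then log2. Probes detected (p below 0.01) on at least 3 of 12 arrays were kept, 15062 in all, and where a gene had several, the one brightest on average stood for it. Groups were compared with limma (lmFit, eBayes, two-sided) with Benjamini-Hochberg adjustment over 8819 genes, threshold 0.05. On simulated data the fit recovered 16.4% of genes with a log2 change of 0.5, 91% at 1 and 98.5% at 2. Of its 146 calls there 6.16% were false. A gene with a small change can therefore fail to pass. The number of arrays limits the precision. Members and lists were chosen with earlier results of these data known. Named were all 8 members, of each list every gene past the threshold and up to 3 others of greatest difference, and the 5 genes most like the members. Tests between members and against the clock score were chosen after seeing the values. Same-numbered arrays of the groups were not paired by the labels. No slide is named for any array, so no batch could be tested. The work used R 4.3.3, limma 3.58.1, Python 3.11.15, pandas 2.3.3 and matplotlib 3.10.9.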

Additional observations from a re-analysis of the deposited data

Results flagged for a closer look

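Among 86 sets of 6 arrays checked (the named genes in each group), 5 held an array far from the others by Dixon's criterion for 6 values, and chance marks about 1 in 20. None of the 8 urea cycle genes was among them. All 5 were leptin arrays, on the log2 scale. Fh1 was 11.8 in leptin 3, next to 12.16 in the nearest array, and Slc38a2 was 11.17 there, next to 11.41. Ddah1 was 8.195 in leptin 2, next to 10.16. Slc25a29 was 4.687 in leptin 1, next to 5.089. Creb3l3 was 8.211 in leptin 4, the array with the lowest clock score of its group, next to 9.058. What set these arrays apart was not tested.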

How the results depend on the processing

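The 5 falls among the 8 urea cycle genes stayed 5 with the deposited signals, the series matrix values, detection on 9 arrays, the mean over probes, a variance trend, array weights and the authors' p-values. Under those settings 5.27% to 10.3% of all genes passed as lower. The count was 4 with no filter (3.43% of all genes), 4 without PBS 3 and leptin 4 (8.67%) and 4 to 5 leaving out any 1 array (6.21% to 8.82%). With the clock score it was 3 (3.22%). It was 4 with the score without Arntl (3.63%), an alternative chosen after seeing the data. Ass1 and Slc25a15 passed under all 24 alternatives run. The genes called numbered 720 with the clock score, 812 with that score without Arntl and 1053 to 1546 leaving out any 1 array, against 1474. The reversed results were those of Otc (-0.31 with the clock score, -0.44 without Arntl in it, -0.0205 without leptin 6, -0.0173 without PBS 2 and up to 0.238 leaving out any 1 array) and Aqp8 (-0.54 with the clock score, -0.66 without Arntl in it). The cause was not tested. As a replicate block, the numbers gave 1384 genes and 5 urea cycle genes as lower, against 7.81% of all genes. Deviations of same-numbered arrays correlated from -0.317 to 0.456, 3 of 6 over 0.1, and 4 of 12 arrays were closest to their own number. The labels do not pair these arrays, and whether same-numbered arrays shared a slide or run was not tested. On the deposited signals 7 of the 13 probes passed, and of 56 within-group correlations 40 were positive, 34 without 2 arrays. Slides as a block were not run. Signal over background limits Slc25a13, the second Otc probe and Glul, among others.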
